A study of Mus musculus with 34 samples.

Results

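The genes described here are 10 neuropeptide genes of cortical and hippocampal interneurons: Sst, Cort, Npy, Crh, Pdyn, Penk, Tac1, Cck, Vip and Pthlh. They were taken by symbol, and all 10 were listed once in each of the 5 deposited gene tables, which hold 24371, 11808 and (in each of the last 3 tables) 53465 genes. The data are RNA-seq of mRNA bound to tagged ribosomes in 34 libraries of C57/BL6 mice at postnatal day 60. In the RiboTag method, cells that express Cre recombinase put an HA tag on the ribosomal protein Rpl22, and an antibody to HA pulls down their ribosomes with the mRNA. Cre was driven by Pvalb, in parvalbumin (PV) interneurons, or by Sst, in somatostatin (SST) interneurons.

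The libraries fall into 11 groups in 5 batches. Batch 1 has 4 libraries of PV:Cre/Ribotag mice given pentylenetetrazol (PTZ), a GABA receptor antagonist that sets off seizures, and 3 of such mice given saline. Batch 2 has 3 libraries of Sst:Cre/Ribotag mice given PTZ, 4 of Sst:Cre/Ribotag mice given saline and 2 of PV:Cre/Ribotag mice given saline. Batch 3 has 3 PV:Cre/Ribotag libraries after contextual fear conditioning (CFC), in which mice learn to link a place with foot shocks, 3 PV:Cre/Nr4a1-f/f/Ribotag libraries (PV cKO) from the home cage, and 3 PV:Cre/Ribotag home cage libraries. Batch 4 has 3 Sst:Cre/Ribotag libraries after CFC and 3 from the home cage, and batch 5 has 3 Sst:Cre/Nr4a1-f/f/Ribotag libraries (SST cKO) from the home cage. Every group carries Cre and the RiboTag allele, and the labels give the control groups no floxed Nr4a1 allele. In the cKO mice Cre removes Nr4a1, a nuclear receptor gene induced by activity, from the Cre-expressing cells. The tissue label reads cortex and hippocampus, whereas the extraction protocol speaks of cortices.

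Neuropeptides are made as long precursors, cut and stored in dense-core vesicles, and released when neurons fire strongly. They act on G protein-coupled receptors, usually more slowly and over a wider area than GABA, the fast transmitter of the same interneurons. Somatostatin and the related cortistatin, neuropeptide Y, the dynorphins and the enkephalins mostly dampen neurons and their release of transmitter. In cortex, somatostatin, neuropeptide Y and prodynorphin are known from SST interneurons, while Vip and Cck each mark another class of interneuron and Cck is also made by excitatory neurons.

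The Sst promoter is a textbook example of activity control through a cAMP response element (CRE, TGACGTCA). For this reason the 250 bases before the annotated start were searched, on both strands, for the CRE, for its half-site TGACG (which every full CRE also holds), for the AP-1 site TGANTCA bound by Fos and Jun proteins, and for AAAGGTCA, the site bound by Nr4a1. RefSeq sequences (GRCm38.p6) were at hand for 8 of the 10 genes. The full CRE was in the Sst promoter and in 1.55% of all 32851 promoters in the set. A half-site outside a full CRE was in the promoters of Cort, Tac1, Cck and Vip, and a half-site of any kind was in 17.8% of all promoters. The AP-1 and Nr4a1 letters were in no promoter of the 8 genes, against 6.75% and 1.34% of all promoters. Each line shows 30 bases 5′ to 3′ on the strand of the gene, with the CRE or half-site in capitals. The capitals begin 48 bases before the start of Sst, 18 before that of Cort, 197 and 43 before that of Tac1, 47 before that of Cck and 79 before that of Vip. These starts are those of RefSeq. In the GENCODE annotation, used for the gene positions given below, Sst and Tac1 start further upstream. The Sst window and the second Tac1 window lie inside those longer genes.
Sst, chr16:23890874-23890903, minus strand: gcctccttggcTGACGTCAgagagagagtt
Cort, chr4:149126764-149126793, minus strand: ctccggcttgtgCGTCAccgcgtgagtgtg
Tac1, chr6:7554852-7554881, plus strand: tccctaaaattgCGTCAtttcgaacacaat
Tac1, chr6:7555006-7555035, plus strand: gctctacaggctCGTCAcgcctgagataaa
Cck, chr9:121495724-121495753, minus strand: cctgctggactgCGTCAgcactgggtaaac
Vip, chr10:5639127-5639156, plus strand: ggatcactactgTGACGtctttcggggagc
The promoters of Npy, Pdyn and Pthlh held none of the 4 motifs, and Crh and Penk are the 2 genes with no sequence shown. These matches describe letters in the reference genome. No binding was measured in these mice.

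Levels are given as CPM, reads of a gene scaled to a common library size, after TMM scaling within a table. Batches 4 and 5 were scaled together, and the other batches each alone. Total counts per library ran from 4933110 to 27282912, and the 2 PV saline libraries of batch 2 were the shallowest, at 6161764 and 4933110. With 3 counts taken as the floor, this depth allows levels down to between 0.11 and 0.608 CPM. Genes of a 15-gene list of activity-induced genes passed the test in the higher direction after PTZ in SST libraries (11 of 15), after PTZ in PV libraries (4 of 15) and after CFC in SST libraries (5 of 15). After CFC in PV libraries 0 of 15 passed, although 14 of 15 had a positive log2 fold change. All counts of passed genes in the text rest on edgeR's quasi-likelihood test with Benjamini-Hochberg adjustment over all genes tested and a threshold of 0.05. Nothing in the labels ties each library to an animal of its own. The p-values therefore reflect the scatter among these samples, part or all of which may be technical.

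SST and PV interneurons differed in most of the 10 peptide mRNAs. In batch 2, which holds saline libraries of both, Pdyn, Crh, Sst, Npy and Penk were higher in SST libraries, and Pthlh, Tac1 and Cck were lower. That is 5 of 10 genes called higher and 3 of 10 called lower, where 26% and 27.1% of all 11784 genes tested were called higher and lower (53.1% in all). The ranges of the same 8 genes did not overlap between the groups, against 30.7% of genes apart and higher and 28.5% apart and lower. In this tissue, fewer cells of a type and less RNA per cell cannot be told apart. The PV group has 2 libraries. Other markers moved with the comparison. VIP and CCK interneuron markers without Vip and Cck summed to 402 to 490 CPM in SST saline libraries. In PV saline libraries they summed to 44.3 to 77.9 CPM. Of the 7 tested on that list, Vip and Cck included, 3 were called higher, and the 1 called lower was Cck itself. Vascular and mural markers summed to 27.8 to 57.9 CPM in SST and 7.70 to 17.99 CPM in PV saline libraries. Of these, 5 of 10 were called higher, with up to 6 at 0 in a PV library. The part of both lists in the peptide values was not tested.

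Pdyn, which encodes the precursor of the dynorphins that act on kappa opioid receptors, showed the widest gap. It was at 435, 344, 416 and 344 CPM in SST saline libraries, against 1.36 and 0.214 CPM in PV saline libraries. Its log2 fold change was 8.76 ± 0.34 (SE, edgeR adjusted p = 1.12e-08). The PV level rests on 9 and 1 reads, the second below the floor of 3, and the log2 fold change was 10.75 without PV replicate 1 and 8.14 without PV replicate 2.
Sst itself, whose promoter drives Cre in the SST mice and which is therefore partly set by the pull-down, was at 3398, 1746, 2601 and 2534 CPM in SST saline libraries, against 68.1 and 54.3 CPM in PV saline libraries. The log2 fold change was 5.39 ± 0.27 (edgeR adjusted p = 5.66e-08). The PV libraries thus held Sst mRNA at a low level in both replicates.

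Npy encodes neuropeptide Y, a strong inhibitor of transmitter release. Its level was 237, 119, 196 and 225 CPM in SST saline libraries, against 17.99 and 20.5 CPM in PV saline libraries (log2 3.34 ± 0.27, edgeR adjusted p = 1.96e-06). Crh encodes corticotropin-releasing hormone, the peptide that starts the hormonal stress response and that some cortical interneurons also make. It was at 5.26, 3.85, 4.74 and 5.91 CPM in SST saline libraries, against 0.151 and 0 CPM in PV saline libraries. Those PV libraries held 1 Crh read in all, against 324 in the SST saline libraries, a ratio of 56.3 with an exact 95% interval of 10 to 2230 that covers counting error only (edgeR adjusted p = 2.8e-05). Penk encodes the precursor of the enkephalins, which act on delta and mu opioid receptors, and was at 38.2, 27.8, 44.9 and 38.8 CPM in SST saline libraries, against 8.17 and 14.8 CPM in PV saline libraries (log2 1.73 ± 0.28, edgeR adjusted p = 0.00032). Among the 10 genes it alone overlaps another annotated gene. Its exons share 233 bases with A830012C17Rik on the other strand, and since the strand setting of the libraries is not given, reads of the pair cannot be told apart.

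The 3 genes that were lower in SST libraries were also far apart. Pthlh, the gene of parathyroid hormone-like hormone, was at 1.27, 0.869, 0.740 and 0.373 CPM in SST saline libraries, against 19.1 and 37.0 CPM in PV saline libraries (log2 -5.10 ± 0.47, edgeR adjusted p = 5.01e-06). Tac1, which encodes the precursor of substance P and neurokinin A, was at 11.7, 9.93, 8.07 and 14.9 CPM in SST saline libraries, against 115 and 75.9 CPM in PV saline libraries (log2 -3.09 ± 0.24, edgeR adjusted p = 1.31e-06). Cck, the gene of cholecystokinin, was at 23.5, 22.2, 25.7 and 39.2 CPM in SST saline libraries, against 140 and 201 CPM in PV saline libraries (log2 -2.62 ± 0.22, edgeR adjusted p = 2.5e-06). Pthlh and Tac1 stand on the list of PV interneuron markers used here, of which 9 of 10 were called lower in SST libraries. That count includes Pthlh and Tac1 themselves, and Pvalb, which drives Cre in the PV mice. It is therefore no separate evidence on these peptide genes.

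Cort, which encodes cortistatin, a peptide that binds the somatostatin receptors, and Vip, the gene of vasoactive intestinal peptide, did not pass the test. Cort was at 3.63, 2.42, 2.89 and 2.08 CPM in SST saline libraries, against 1.82 and 2.14 CPM in PV saline libraries, so the groups overlapped. The log2 difference of Cort had a 95% interval of -0.40 to 1.37 (edgeR adjusted p = 0.386), which leaves room for more than a doubling. Vip was at 0.532 to 1.74 CPM in SST saline libraries and at 1.82 and 0.641 CPM in PV saline libraries, with an interval of -1.44 to 0.98 (edgeR adjusted p = 0.772). These Vip values rest on 3 to 28 reads a library.

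**Figure D1:**
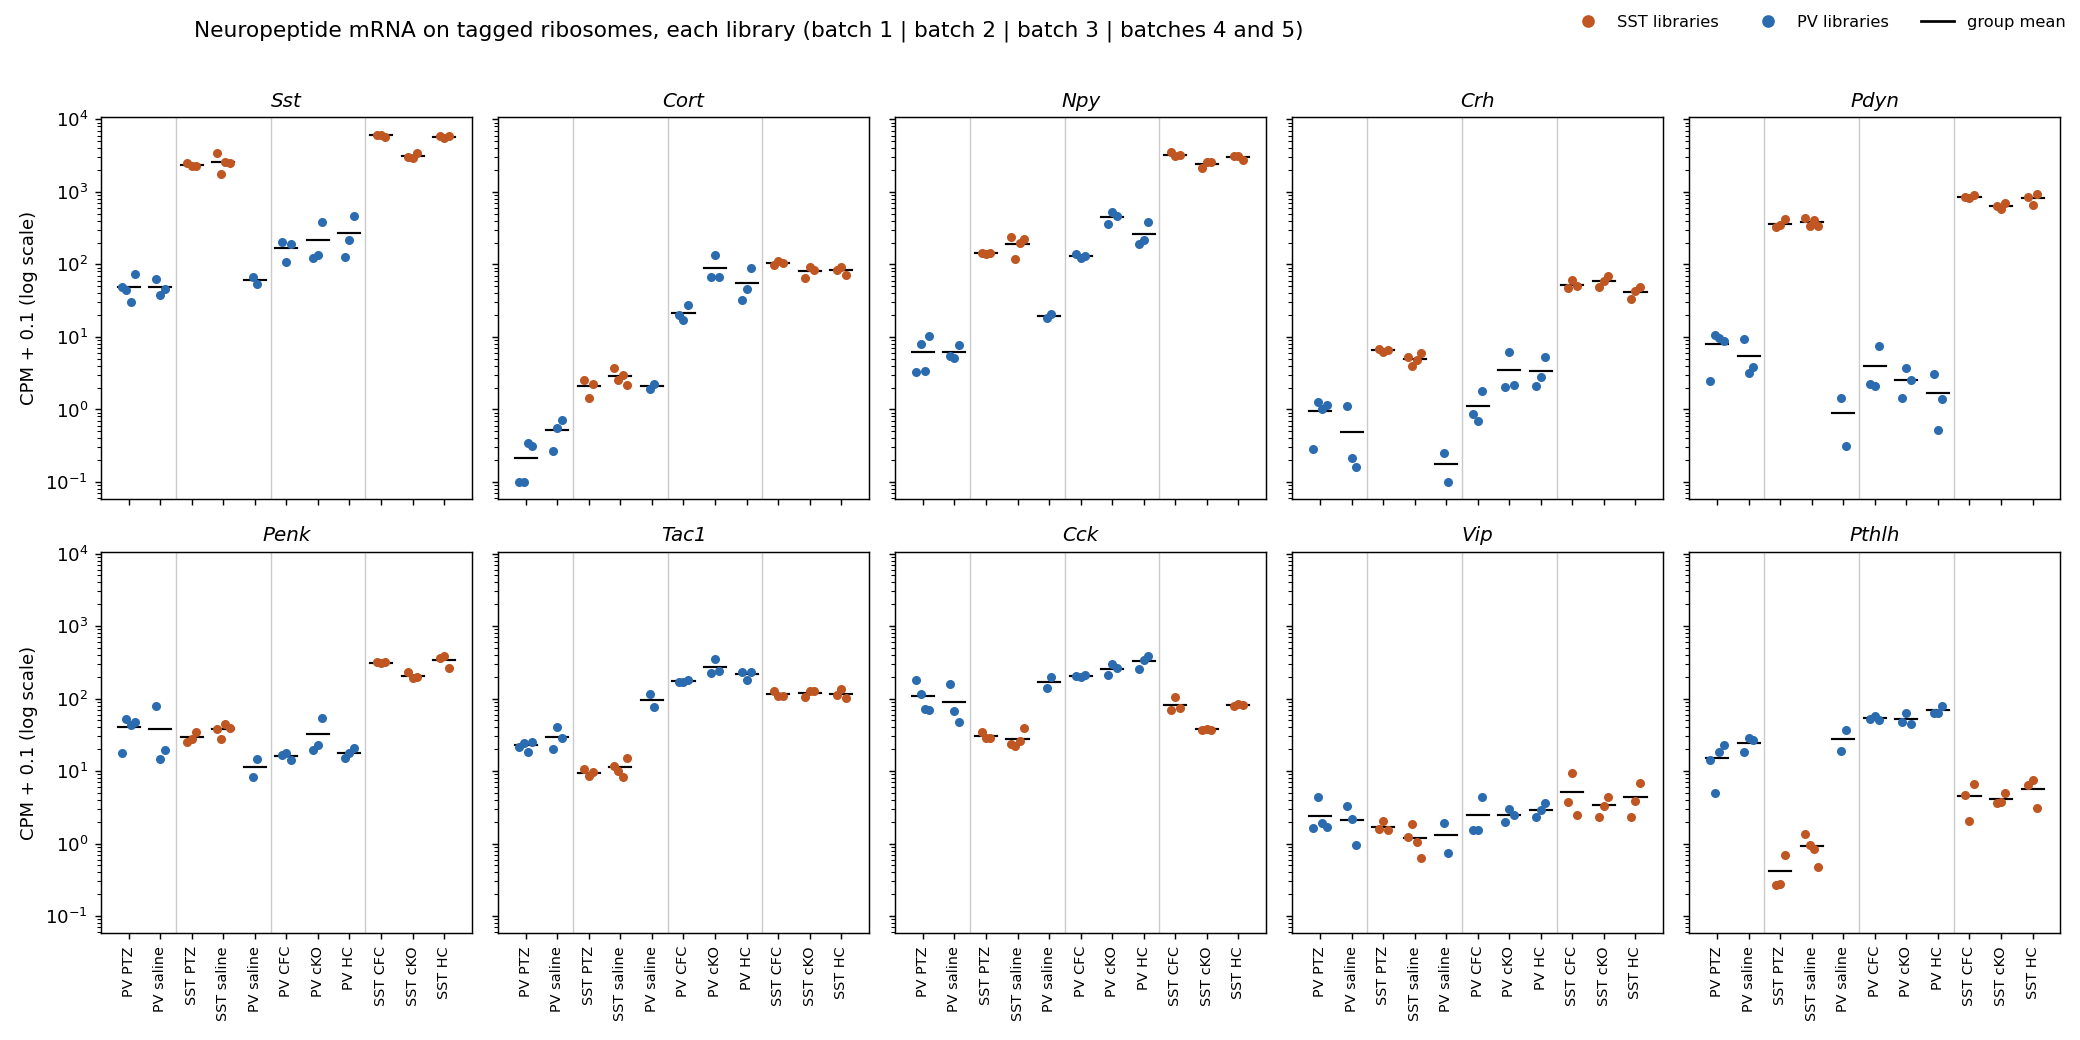
Level of each of the 10 genes in every library (points; vertical axis CPM + 0.1 on a log scale) by group, with the group mean as a line, PV libraries in blue and SST libraries in orange; grey lines part the separately scaled tables. In batch 2, Pdyn sits at 325 to 435 CPM in the SST libraries and at 0.214 to 1.36 CPM in the PV libraries, while Vip stays at or below 9.19 CPM in all 34 libraries.

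PTZ left no called change in any of the 10 peptide genes in either cell type. In SST libraries 0 of 10 genes passed edgeR's test, where 0.144% of 11784 genes did. By unadjusted p under 0.05 there were 2 of 10 (Npy and Pthlh) and 511 genes in all. DESeq2 and limma voom each called 0 of 10, where they called 38 and 27 genes in all. In PV libraries 0 of 9 genes tested passed, where 0.0294% of 13598 genes did. None had an unadjusted p under 0.05, where 1875 genes in all did. DESeq2 and limma voom each called 0, where they called 215 and 4 genes in all. Cort was below the filter on low counts in batch 1, with 0, 0, 4 and 3 reads in PV PTZ libraries and 2, 8 and 10 reads in PV saline libraries.

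In SST cells the Sst level was 2486, 2274 and 2259 CPM after PTZ, against 3398, 1746, 2601 and 2534 CPM after saline. The PTZ libraries lay inside the saline range, and the log2 difference was -0.14 with a 95% interval of -0.48 to 0.21 (edgeR adjusted p = 0.989). Npy was at 143, 141 and 142 CPM after PTZ, against 237, 119, 196 and 225 CPM after saline (log2 -0.45 ± 0.19, edgeR adjusted p = 0.989). The 3 PTZ libraries were close to each other and below all saline libraries except the lowest. Crh was the only one of the 10 whose ranges were apart (0 were apart and lower, where 5.84% of all genes were): 6.66, 6.07 and 6.59 CPM after PTZ, against 5.26, 3.85, 4.74 and 5.91 CPM after saline (log2 0.38 ± 0.26, edgeR adjusted p = 0.989). Of all genes, 4.57% were apart and higher in the same way. Pdyn differed by -0.07 on the log2 scale, with an interval of -0.37 to 0.23. Pthlh was at or below 1.27 CPM in all 7 libraries. The intervals of the others were -1.15 to 0.21 for Cort, -0.78 to 0.05 for Penk, -0.68 to 0.19 for Tac1, -0.26 to 0.54 for Cck and -0.33 to 1.46 for Vip, and each of these genes overlapped between the groups. PV interneuron markers other than Tac1 and Pthlh summed to 1933 to 2011 CPM after PTZ and to 2118 to 2431 CPM after saline (10 of all 10 negative). Vascular and mural markers summed to 62.9 to 82.25 CPM after PTZ and to 27.8 to 57.9 CPM after saline (8 of 10 positive). For astrocyte markers the sums were 1212 to 1373 CPM and 1116 to 1180 CPM (5 of 10 positive). In each list 0 were called and none was at 0, and their part in the peptide values was not tested.

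In PV cells after PTZ, Sst was at 49.0, 44.5, 30.2 and 74.4 CPM, against 62.3, 38.0 and 45.3 CPM after saline (log2 0.03, 95% interval -0.55 to 0.61, edgeR adjusted p = 0.968). Cck and Penk varied widely within both groups. Cck was at 183, 115, 71.3 and 69.8 CPM after PTZ and at 159, 66.9 and 47.0 CPM after saline, and Penk was at 17.6, 52.0, 42.9 and 47.9 CPM after PTZ and at 79.1, 14.7 and 19.5 CPM after saline. Saline replicate 1 held the highest values of both genes in its group. Without it the log2 difference of Penk was 1.22 (edgeR adjusted p = 0.199) and that of Cck 0.94 (edgeR adjusted p = 0.271), against 0.09 and 0.28 with it. That library also held more Nr4a1, at 37.3 CPM, against 4.64 and 8.33 CPM in the other 2 saline libraries. Markers of other cells were higher in it as well. Astrocyte markers summed to 4985 CPM, against 1014 and 1127 CPM, and excitatory neuron markers to 4076 CPM, against 2008 and 1971 CPM. Oligodendrocyte lineage markers summed to 2311 CPM, against 851.5 and 1161 CPM, and microglia markers to 133 CPM, against 47.2 and 47.4 CPM. The part of these markers in Cck and Penk was not tested. The other genes gave wide intervals of the log2 difference: -0.84 to 0.87 for Npy, -0.72 to 3.04 for Crh, -0.48 to 1.57 for Pdyn, -0.90 to 0.09 for Tac1, -0.89 to 1.29 for Vip and -1.51 to 0.11 for Pthlh. The ranges of 0 of 9 genes were apart, against 13.8% of all genes. PV interneuron markers other than Tac1 and Pthlh summed to 800 to 2438 CPM after PTZ and to 2943 to 3807 CPM after saline, with a negative log2 fold change in 9 of all 10, 0 called and none at 0. The exception was Pvalb, the gene that drives Cre, at 78.9, 40.3, 72.7 and 128 CPM after PTZ, against 15.9, 21.9 and 22.1 CPM after saline (log2 2.00 ± 0.35, edgeR adjusted p = 0.159). Vascular and mural markers summed to 96.6 to 204 CPM after PTZ and to 39.3 to 79.6 CPM after saline, with 0 called, and the part of either list in the peptide values was not tested. The PTZ response of the SST cells minus that of the PV cells, fitted in 1 model over both batches, passed the test for 0 of 10 peptide genes and 0% of 11743 genes by edgeR (0 of 10 also by unadjusted p under 0.05, by DESeq2 and by limma voom; over all genes 602 by unadjusted p and 1 by DESeq2).

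**Figure D2:**
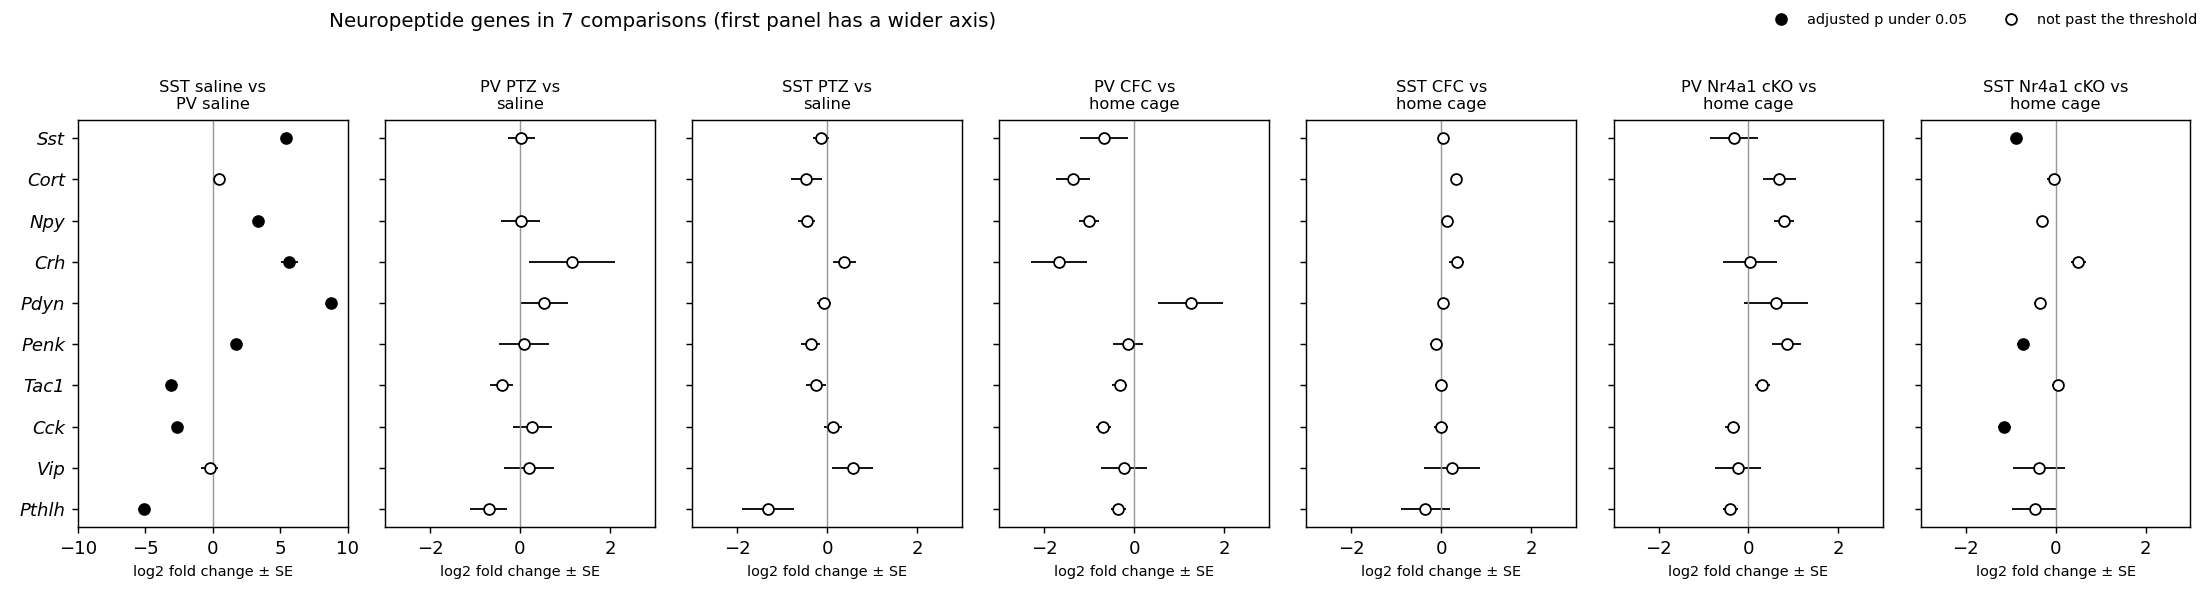
Log2 fold changes of the 10 genes with SE bars in the 7 pairwise comparisons; filled points passed the adjusted p threshold of 0.05, and the left panel has a wider axis. Filled points appear in SST against PV saline libraries (8 genes) and in SST cKO against home cage (3 genes), and in none of the other 5 panels.

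Fear conditioning was compared with the home cage in each cell type. In SST libraries none of the peptide mRNAs passed the test, and the most abundant ones differed little. Sst was at 6143, 6124 and 5756 CPM after CFC, against 5980, 5521 and 5904 CPM in the home cage. The difference was 0.04 ± 0.06 on the log2 scale, with a 95% interval of -0.07 to 0.15 (edgeR adjusted p = 0.997). Npy was at 3542, 3092 and 3204 CPM after CFC and at 3131, 3128 and 2735 CPM in the home cage (interval -0.03 to 0.28), and the groups overlapped. Pdyn was at 847, 815 and 899 CPM after CFC, inside its home cage range of 659 to 952 CPM.

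Cort was the 1 gene of the 10 with ranges apart in this comparison, higher after CFC, where 4.92% of all genes were (0 were apart and lower, against 5.67%). It was at 97.0, 112 and 105 CPM after CFC, against 83.1, 93.6 and 71.2 CPM in the home cage. Its log2 fold change of 0.33 ± 0.12 did not pass (edgeR adjusted p = 0.828). Crh was at 46.8, 60.8 and 50.3 CPM after CFC, against 33.6, 42.4 and 48.1 CPM in the home cage (log2 0.34 ± 0.17, edgeR adjusted p = 0.943), with 1 CFC library below the highest home cage library. The other 5 genes overlapped between the groups. The 95% intervals of the log2 difference were -0.39 to 0.14 for Penk, -0.26 to 0.23 for Tac1 and -0.31 to 0.30 for Cck. For the low Vip and Pthlh they were wide, -0.97 to 1.46 and -1.44 to 0.73. In all, 0 of 10 genes passed edgeR's test, where 0.0411% of 14614 genes did. By unadjusted p under 0.05 there was 1 of 10, and 814 genes in all. DESeq2 and limma voom called 0 of 10, where they called 101 and 5 genes in all. Vascular and mural markers moved with the groups, at a summed 65.0 to 107 CPM after CFC and 171 to 786 CPM in the home cage over 15 genes, all with a negative log2 fold change and 1 called lower. At most 2 of the 15 were at 0 in a CFC library and 0 in a home cage library. Microglia markers summed to 56.8 to 64.3 CPM after CFC and to 69.4 to 94.4 CPM in the home cage (8 of 10 negative). Sums overlapped for astrocyte (10 of 10 negative), oligodendrocyte lineage (11 of 11) and excitatory neuron markers (10 of 14). In these lists 0 were called, and the part of all these markers in the peptide values was not tested.

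In PV libraries, CFC values were lower for most peptide genes, but none passed the test. Npy was at 138, 123 and 131 CPM after CFC, against 191, 215 and 379 CPM in the home cage (log2 -1.0 ± 0.23, edgeR adjusted p = 0.186). Cort was at 20.0, 16.8 and 27.9 CPM after CFC, against 32.5, 45.1 and 90.1 CPM in the home cage (log2 -1.36 ± 0.37, edgeR adjusted p = 0.186). Cck was at 206, 195 and 210 CPM after CFC, against 254, 339 and 391 CPM in the home cage (log2 -0.68 ± 0.17, edgeR adjusted p = 0.186). For these 3 genes the CFC libraries were close together and below every home cage library, among which replicate 3 was the highest.

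The ranges of Crh, Tac1 and Pthlh were apart in the same direction. Crh was at 0.775, 0.592 and 1.69 CPM after CFC, against 2.00, 2.68 and 5.24 CPM in the home cage. Tac1 was at 167, 172 and 182 CPM after CFC, against 235, 183 and 236 CPM in the home cage, and Pthlh at 52.8, 57.4 and 51.2 CPM after CFC, against 63.7, 63.8 and 79.0 CPM. Thus 6 of 10 genes were apart and lower, where 11.4% of all genes were, and 0 of 10 were apart and higher, where 13.6% were. The medians of the log2 fold change were -0.51 over the 10 genes and 0.02 over all 15150 genes tested. Home cage replicate 3 has 10096035 counts, against at least 15301328 in the other 8 libraries of the batch.

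Sst itself was at 202, 108 and 194 CPM after CFC, against 126, 215 and 464 CPM in the home cage, so the groups overlapped (log2 -0.67 ± 0.54, edgeR adjusted p = 0.522). Without home cage replicate 3 the log2 difference of Sst was -0.02 (edgeR adjusted p = 0.989), and with no filter on low counts it was -0.63 (edgeR adjusted p = 0.0074). The other SST interneuron markers summed to 549 to 606 CPM after CFC and 583 to 777 CPM in the home cage; 7 of 9 tested markers, Sst included, had a negative log2 fold change and 0 were called. At most 1 of these markers was at 0 in a library, and their part in the values of Npy, Cort and Crh was not tested. Excitatory neuron markers summed to 556 to 670 CPM after CFC and to 501 to 537 CPM in the home cage (8 of 14 positive, 0 called). VIP and CCK interneuron markers without Vip and Cck summed to 35.9 to 40.0 CPM and 21.6 to 34.9 CPM (6 of all 10 positive, 0 called). Prox1 (log2 1.77 ± 0.52, edgeR adjusted p = 0.186) stands on the excitatory neuron list and on the VIP and CCK list, so the lists are not separate. The part of these lists in the peptide values was not tested. Pdyn was at 2.14, 2.03 and 7.39 CPM after CFC, against 3.02, 0.413 and 1.31 CPM in the home cage, and Penk (95% interval of the log2 difference -0.78 to 0.50) and Vip (-1.23 to 0.77) also overlapped between the groups.

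By edgeR 0 of 10 peptide genes and 0% of 15150 genes were called in PV CFC against home cage libraries. By unadjusted p under 0.05 there were 4 of 10 peptide genes and 2834 genes in all; DESeq2 called 3 of 10 (Cort, Npy and Cck) and 617 in all, and limma voom 0 of 10 and 1 in all. Without home cage replicate 1, edgeR called Cort (log2 -1.64, adjusted p = 0.0245), Npy (log2 -1.18, adjusted p = 0.0191) and Cck (log2 -0.83, adjusted p = 0.0191), along with 1481 genes in all. With all libraries and no filter on low counts, edgeR called Cort, Npy, Cck and Sst (adjusted p = 8.71e-09, 2.09e-06, 0.00482 and 0.0074), along with 1032 genes. The calls thus differed with the tool, with the filter and with home cage replicate 1.

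**Figure D3:**
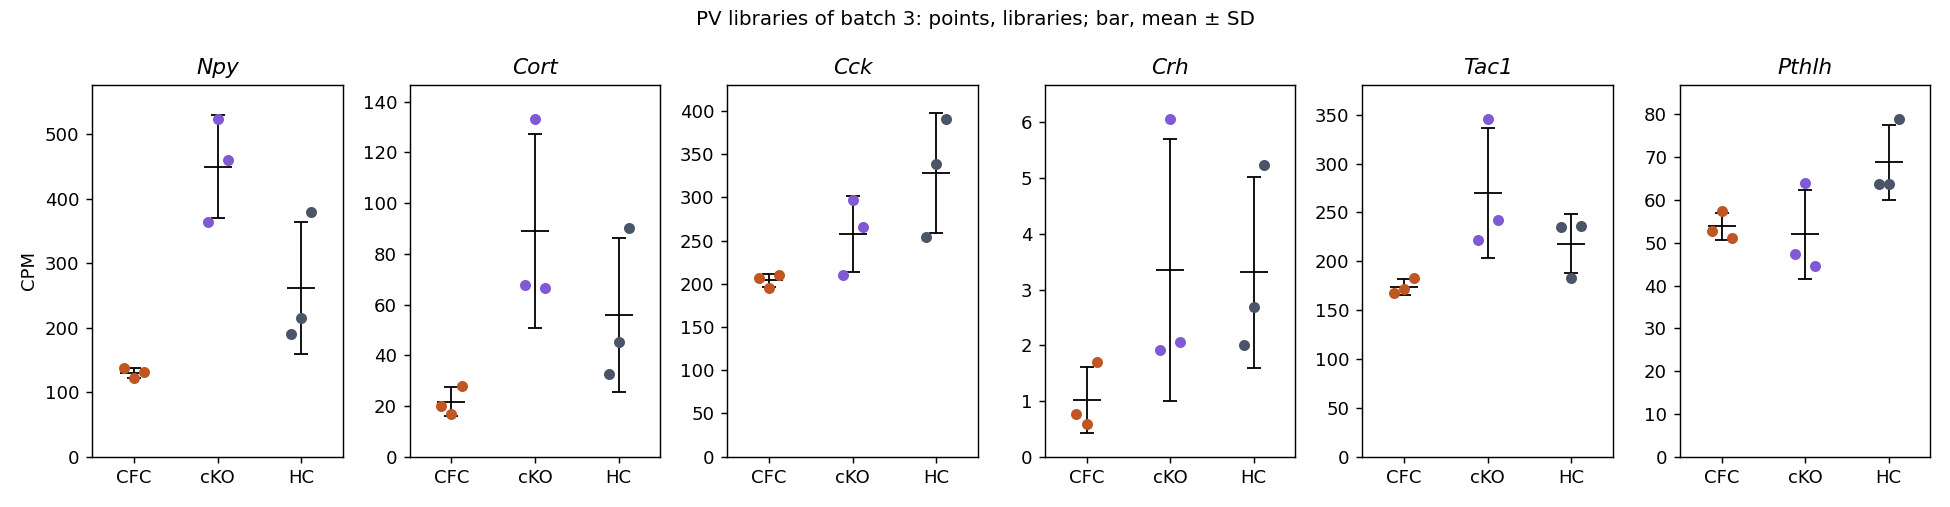
Levels (CPM, linear axis from 0) of 6 of the genes in the PV libraries of batch 3 after CFC, in PV cKO mice and in home cage (HC) controls; points are libraries and bars are mean ± SD over 3 libraries. The panels show the 6 of 10 genes whose CFC and home cage ranges did not overlap, all lower after CFC. Sst, Pdyn, Penk and Vip, which overlapped, are not shown. Npy lies at 123 to 138 CPM after CFC, against 191 to 379 CPM in the home cage. Tac1 is barely apart, with 182.4 CPM as its highest CFC value and 182.8 CPM as its lowest home cage value.

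The difference between the CFC response of SST cells and that of PV cells was tested in 1 model over batches 3 and 4. It passed for 0 of 10 peptide genes and 0% of 16081 genes by edgeR. By unadjusted p under 0.05 there were 4 of 10 (Cort, Npy, Crh and Cck) and 2452 genes in all; DESeq2 called Cort, Npy and Crh among 220 genes, and limma voom called 0 of 10. The difference was 1.76 ± 0.46 for Cort, 1.19 ± 0.28 for Npy and 2.03 ± 0.63 for Crh on the log2 scale (edgeR adjusted p = 0.21 each), a higher value for the response in SST cells. For Cck it was 0.75 ± 0.24 (edgeR adjusted p = 0.213). Without PV home cage replicate 1, edgeR called all 4, Cort at 2.05 (adjusted p = 0.0182), Npy at 1.38 (0.0169), Crh at 2.33 (0.048) and Cck at 0.91 (0.0283), among 881 genes. For Sst the difference was 0.78 with a 95% interval of -0.52 to 2.08.

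Deletion of Nr4a1 was compared with the home cage controls in each cell type. The counts cover the whole Nr4a1 gene, and the deleted part is not stated in the sources used here, so they do not check the genotype. Nr4a1 was at 6.68, 16.5 and 7.65 CPM in PV cKO libraries, against 5.07, 7.43 and 11.7 CPM in PV home cage libraries. It was at 14.2, 11.3 and 17.6 CPM in SST cKO libraries, against 23.9, 15.3 and 13.9 CPM in SST home cage libraries.

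In PV cKO libraries no peptide gene passed the test. The 3 home cage libraries are the same ones that served for CFC, so the 2 comparisons are not independent. Npy was at 365, 524 and 461 CPM in PV cKO libraries, against 191, 215 and 379 CPM in home cage libraries (log2 0.78 ± 0.23, edgeR adjusted p = 0.154), and 1 cKO library lay below the highest control. Cort was at 67.6, 133 and 66.6 CPM in PV cKO libraries, against 32.5, 45.1 and 90.1 CPM in home cage libraries (log2 0.68 ± 0.36, edgeR adjusted p = 0.341). Cck was at 210, 297 and 266 CPM in PV cKO libraries, against 254, 339 and 391 CPM in home cage libraries (log2 -0.35 ± 0.17, edgeR adjusted p = 0.297). In each of these genes the groups overlapped. Without home cage replicate 3, edgeR called Npy (log2 1.15, adjusted p = 0.0219), among 26 genes in all. With no filter on low counts it called Npy, Cort and Penk (adjusted p = 9.22e-05, 0.00796 and 0.0121), among 1072 genes in all.

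PV cKO replicate 3 stood apart from the other cKO libraries, and whether it belongs to its label is not known. Pvalb was at 1053, 1346 and 156 CPM in the 3 PV cKO libraries, against 155, 190 and 163 CPM in home cage libraries. Penk was at 19.7, 22.9 and 53.1 CPM in PV cKO libraries, against 15.2, 17.5 and 20.5 CPM in home cage libraries, and Sst at 123, 135 and 387 CPM in PV cKO libraries, against 126, 215 and 464 CPM in home cage libraries. The log2 difference of Penk was 0.85 ± 0.33 (edgeR adjusted p = 0.213), and without replicate 3 it was 0.27 (edgeR adjusted p = 0.545). That of Sst was -0.32 ± 0.54 with replicate 3 and -1.05 without it (edgeR adjusted p = 0.788 and 0.256). Npy was at 0.77 without replicate 3 (edgeR adjusted p = 0.192), and 0 of 10 genes passed without it. The 95% intervals of the other genes, with all libraries, were -1.15 to 1.22 for Crh, -0.80 to 2.02 for Pdyn, -0.03 to 0.64 for Tac1, -1.24 to 0.77 for Vip and -0.72 to -0.08 for Pthlh. In all, 0 of 10 genes passed edgeR's test, where 0.139% of 15150 genes did. By unadjusted p under 0.05 there were 3 of 10 (Npy, Penk and Pthlh) and 2699 genes in all. DESeq2 called 1 of 10 (Npy) and 650 genes in all, and limma voom 0 of 10 and 22 in all. The ranges of 0 of 10 genes were apart, against 18.4% of all genes. Oligodendrocyte lineage markers summed to 419 to 988 CPM in PV cKO libraries and to 223 to 403 CPM in home cage libraries. Their log2 fold change was positive in 11 of 11, with 0 called and none at 0. Excitatory neuron markers summed to 549 to 612 CPM, against 501 to 537 CPM (10 of 14 positive, 0 called). VIP and CCK interneuron markers without Vip and Cck summed to 39.1 to 69.0 CPM, against 21.6 to 34.9 CPM (6 of all 10 positive, 0 called). Prox1 (log2 2.36 ± 0.53, edgeR adjusted p = 0.116) counts in both of these lists. Microglia markers summed to 52.85 to 68.9 CPM, against 46.0 to 52.2 CPM (6 of 10 positive, 0 called). The part of these lists in the peptide values was not tested.

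In SST cKO libraries, Sst, Cck and Penk fell. The cKO libraries are batch 5 and their home cage controls batch 4, so the deletion and the batch cannot be told apart in any value of this comparison. Sst (ENSMUSG00000004366, chr16:23889573-23890958 on GRCm38, minus strand) was at 3063, 2958 and 3402 CPM in SST cKO libraries, against 5980, 5521 and 5904 CPM in home cage libraries. The log2 fold change was -0.89 ± 0.07 (edgeR adjusted p = 0.000307). Cck (ENSMUSG00000032532, chr9:121489824-121495694, minus strand) was at 37.0, 38.4 and 36.8 CPM in SST cKO libraries, against 79.4, 85.4 and 82.1 CPM in home cage libraries (log2 -1.14 ± 0.14, edgeR adjusted p = 0.00157). For both genes the spread within a group was small beside the gap. Penk (ENSMUSG00000045573, chr4:4133531-4138819, minus strand) was at 230, 190 and 198 CPM in SST cKO libraries, against 365, 392 and 263 CPM in home cage libraries (log2 -0.72 ± 0.13, edgeR adjusted p = 0.01), with the caution on its antisense neighbour given above.

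Of the 10 genes, 3 were thus called lower and 0 higher, where 4.59% and 3.51% of 15453 genes were (8.1% in all). DESeq2 called 6 of 10, adding Npy, Pdyn and Crh, and 2126 genes in all. Penk did not pass without cKO replicate 2 (edgeR adjusted p = 0.0579) or without cKO replicate 3 (edgeR adjusted p = 0.0565). Sst and Cck passed in all 12 alternative settings run for this comparison.

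Npy and Crh did not pass, although the ranges were apart in opposite directions. Npy was at 2113, 2614 and 2557 CPM in SST cKO libraries, against 3131, 3128 and 2735 CPM in home cage libraries (log2 -0.30 ± 0.10, edgeR adjusted p = 0.0839). Crh was at 49.0, 58.8 and 68.6 CPM in SST cKO libraries, against 33.6, 42.4 and 48.1 CPM in home cage libraries (log2 0.51 ± 0.17, edgeR adjusted p = 0.104). In all, 4 of 10 genes were apart and lower and 1 apart and higher, where 14.9% and 15% of all genes were. Pdyn was at 642, 576 and 709 CPM in SST cKO libraries and at 859, 659 and 952 CPM in home cage libraries (log2 -0.36 ± 0.13, edgeR adjusted p = 0.12), and without home cage replicate 2 it passed (log2 -0.49, edgeR adjusted p = 0.0249).

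Cort and Tac1 were near their controls. Cort was at 64.1, 92.2 and 85.0 CPM in SST cKO libraries, against 83.1, 93.6 and 71.2 CPM in home cage libraries, a log2 difference of -0.04 with a 95% interval of -0.32 to 0.25 (edgeR adjusted p = 0.933). Tac1 was at 104, 127 and 129 CPM in SST cKO libraries, against 111, 134 and 101 CPM in home cage libraries (interval -0.19 to 0.30, edgeR adjusted p = 0.88). Vip and Pthlh stayed at or below 7.50 CPM in all 6 libraries and overlapped between the groups.

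Markers of several other cell types were lower in SST cKO libraries too. Excitatory neuron markers summed to 597 to 615 CPM in SST cKO libraries and to 931 to 1089 CPM in home cage libraries, with a negative log2 fold change in 14 of 14 and 3 called lower. Astrocyte markers summed to 361 to 389 CPM in SST cKO libraries and to 491 to 672 CPM in home cage libraries (1 of 10 called lower), oligodendrocyte lineage markers to 722 to 793 CPM and 1074 to 1513 CPM (4 of 11), and microglia markers to 42.5 to 53.6 CPM and 69.4 to 94.4 CPM (1 of 10). At most 1 microglia marker was at 0 in a home cage library, and no marker of the other 3 types was at 0 in any of the 6 libraries. Cck is made by excitatory neurons as well, and the part of these markers in its value was not tested. The SST interneuron markers other than Sst summed to 3017 to 4184 CPM in SST cKO libraries and to 2981 to 3903 CPM in home cage libraries, and of the 10 with Sst, 7 had a positive log2 fold change and Sst alone was called. Vascular and mural markers set cKO replicate 1 apart, with sums of 1453, 64.8 and 63.1 CPM in the 3 SST cKO libraries and 171, 786 and 454 CPM in home cage libraries (8 of 15 with a positive log2 fold change, 0 called). Without that library the same 3 peptide genes passed, among 1292 genes in all. Their log2 fold changes were -0.87 for Sst, -1.13 for Cck and -0.81 for Penk (edgeR adjusted p = 0.000477, 0.00479 and 0.0104).

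**Figure D4:**
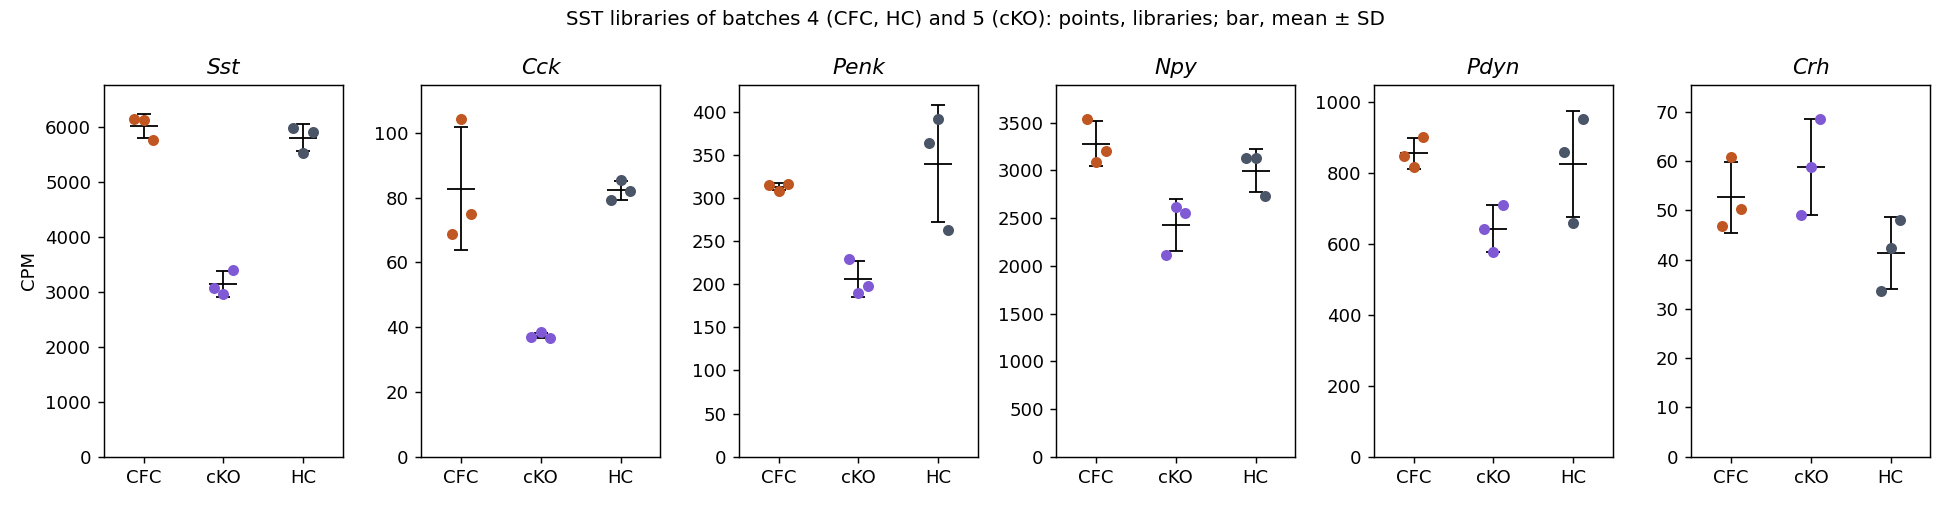
Levels (CPM, linear axis from 0) of 6 of the genes in SST libraries after CFC, in SST cKO mice and in home cage (HC) controls; points are libraries and bars are mean ± SD over 3 libraries. Sst lies at 2958 to 3402 CPM in cKO libraries, against 5521 to 5980 CPM in home cage libraries, whereas the CFC libraries, at 5756 to 6143 CPM, overlap the home cage; the cKO libraries are a batch of their own.

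The genes that process, store and sense these peptides were read from 3 lists. Of 12 peptide processing enzymes and granins, 4 were called lower and 1 higher in SST cKO libraries, where 4.59% of all genes were called lower and 3.51% higher. Pcsk1n, which encodes an inhibitor of the prohormone convertase Pcsk1, fell by 1.12 on the log2 scale (SE 0.10, edgeR adjusted p = 0.000387), Chga (the granule protein chromogranin A) fell by 0.54 (adjusted p = 0.00608) and Pam (the enzyme that amidates peptides such as Npy and Cck) fell by 0.39 (adjusted p = 0.0175). Cadps, which primes dense-core vesicles for release, rose by 0.41 (adjusted p = 0.0206). The list's median log2 fold change was -0.18, against 0.02 over all genes tested. Of 19 other neuropeptide genes tested, Pnoc, Cartpt and Vgf were called lower and Nxph1 higher, and the median was -0.37. Of 21 peptide receptor and binding protein genes tested, 0 passed by edgeR, and the smallest p was that of Oprd1, the delta opioid receptor. Batch and deletion coincide for these genes as well.

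The lists were also read in SST against PV saline libraries, where 26% of all genes were called higher and 27.1% lower. Of 16 receptor and binding protein genes tested, 9 were called higher and 2 lower in SST libraries, and the median log2 fold change was 1.61, against 0.02 over all genes. Called higher were Oprm1, the mu opioid receptor (log2 5.65 ± 0.47, edgeR adjusted p = 2.37e-06), the somatostatin receptor Sstr1 (log2 3.87 ± 0.43, edgeR adjusted p = 1.92e-05), the neuropeptide Y receptor Npy2r (log2 3.61 ± 0.49, edgeR adjusted p = 8.86e-05) and Crhbp, which binds and buffers Crh (log2 2.58 ± 0.21, edgeR adjusted p = 1.87e-06). Of 11 other neuropeptide genes tested, 5 were called higher and 2 lower, and of 12 processing genes 3 higher and 5 lower, against 53.1% of all genes called in either direction. In the 4 PTZ and CFC comparisons and in PV cKO against home cage libraries, 0 genes of these 3 lists passed edgeR's test.

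For a rough comparison between genes, levels were set per kilobase of annotated exon, pooled over all annotated transcripts of a gene. The lengths of the transcripts present were not measured. On this scale Sst had the highest group mean in all SST groups. It led in each SST library but 1, a cKO library in which Npy led. Sst made up 88.3% of the summed CPM per kilobase of the 10 genes in SST PTZ libraries and 87% in SST saline libraries, followed by Npy at 6.82% and 8.38%. In batches 4 and 5 the share of Sst was 55.9% after CFC, 47.2% in SST cKO libraries and 57.1% in the home cage, and that of Npy 38.9%, 46.5% and 37.6%. In PV libraries Cck led in both saline libraries of batch 2 (42.8% of the mean sum) and in 3 of 4 PTZ libraries of batch 1 (40.4%). After saline in batch 1 Cck and Sst were level in the mean, at 35.2% and 34.0%, and Sst led in 2 of 3 libraries. In batch 3 Npy led in PV cKO and home cage libraries, at 51.1% and 35.8%, while after CFC Sst and Npy were level, at 31.1% and 30.8%. These shares are built from group means and were not tested.

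**Figure D5:**
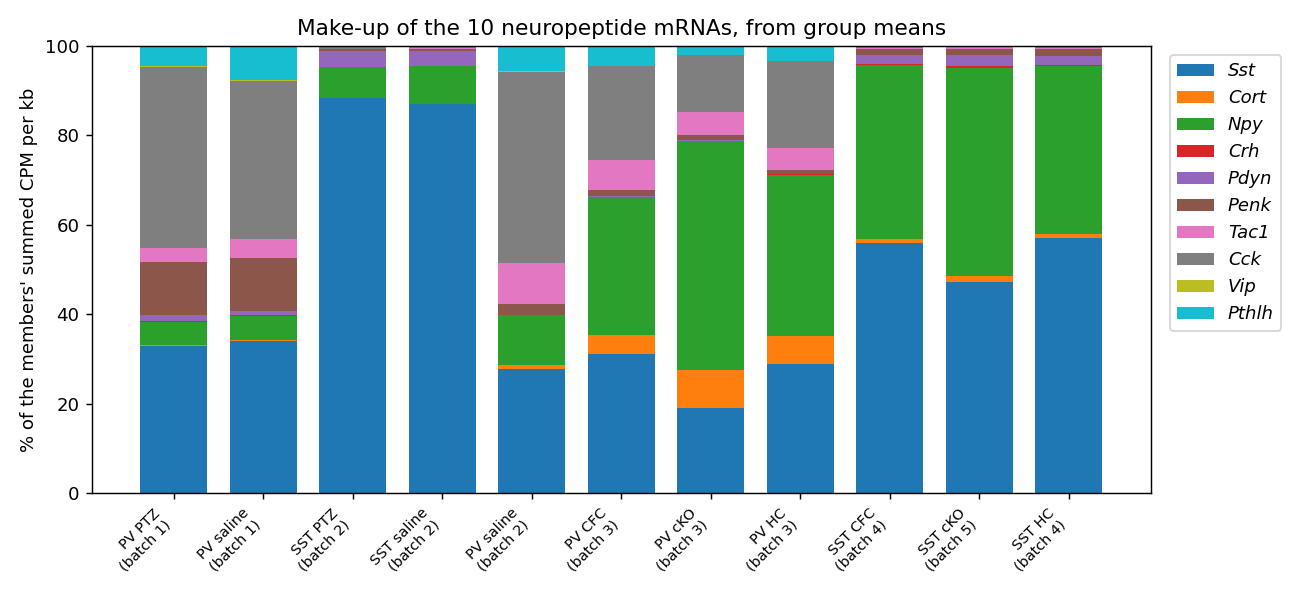
Share of each gene in the summed CPM per kilobase of exon of the 10 neuropeptide genes, from group means, in 11 groups. Sst fills 87% to 88.3% of the bar in SST groups of batch 2 and 47.2% to 57.1% in those of batches 4 and 5, where Npy fills 37.6% to 46.5%.

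The deposited tables were scaled separately, so levels in different batches are set side by side without a test. The order of the groups differed between the genes. Pdyn was at 576 to 952 CPM in SST libraries of batches 4 and 5, at 325 to 435 CPM in SST libraries of batch 2 and at 0.214 to 10.6 CPM in all PV libraries, with no overlap between these 3 sets. Sst was likewise at 2958 to 6143 CPM, 1746 to 3398 CPM and 30.2 to 464 CPM, where the first 2 sets overlapped. Npy followed another order, since the PV libraries of batch 3, at 123 to 524 CPM, overlapped the SST libraries of batch 2, at 119 to 237 CPM. Cort followed the batches more than the cell type: it was at 64.1 to 112 CPM in SST libraries of batches 4 and 5 and 16.8 to 133 CPM in PV libraries of batch 3, but at or below 3.63 CPM in every library of batches 1 and 2.

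Mean levels in SST home cage libraries (batch 4) were 22.3 times those in SST saline libraries (batch 2) for Cort, 15.4 times for Npy and 2.26 times for Sst, taken as ratios of mean CPM + 1. The median over 10483 genes was 0.42 on the log2 scale, and Cort and Npy lay at the 99.1 and 98 percentiles. In PV home cage (batch 3) against PV saline libraries (batch 1), Cort and Npy differed by ratios of 40.3 and 37.3, both at the 99.6 percentile of 10299 genes, while Vip differed by 1.26. Treatment, batch and the way each table was made differ together in these 2 comparisons and cannot be told apart. PV saline libraries are in batches 1 and 2, so there the treatment is the same. The ratios of batch 2 to batch 1 were 3.12 for Tac1 and 2.88 for Npy, at the 98.5 and 97.9 percentiles of 9894 genes. They were 0.321 for Penk and 0.280 for Pdyn, at the 3.64 and 2.67 percentiles. The other genes ran from 0.734 for Vip to 2.11 for Cort.

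The pattern over the 11 group means was matched against 10132 genes with a mean of at least 5 CPM, by Pearson's r of the mean log2(CPM + 1). Sst was most like Tmeff2 (r = 0.984), Hcn3 and Timp2, and Pdyn most like AW551984 (r = 0.993), Cacng5 and Chodl, the last a marker of SST cells. Npy was most like Ifnar2 (r = 0.993), Bex1 and As3mt, Cort most like Bloc1s6 (r = 0.991), Lgals1 and Chac2, and Tac1 most like Ddit3 (r = 0.997), Mrpl9 and Glrx3. Pthlh was most like Adamtsl5 (r = 0.991), Parm1 and Zfp536, Crh most like Bex4 (r = 0.986), Atp1b3 and Calb2, and Penk most like Jup (r = 0.980), Serpine2 and Gap43. For Cck the first was Cxxc5 (r = 0.965), and for Vip Necab2 (r = 0.959). Among the 10 genes themselves the closest pairs were Cck with Pthlh (r = 0.939) and Sst with Pdyn (r = 0.935), and the most opposed pair was Pdyn with Pthlh (r = -0.877). Group means of a batch share their table, so these values describe 11 points and carry no test.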

How the data were processed

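RNA-seq of HA-tagged ribosome pull-downs was analysed in 34 libraries. The submitters' processing notes name STAR 2.5.2a, HTSeq 0.11.0, DESeq2 and cutadapt 1.18, as well as the builds GRCm39 and mm10, with no role or batch. Whether counting used the strand is not given here. For batch 1 the authors deposited expected counts (11.1% of values not whole), which were rounded to whole numbers. For batches 2 to 5 the deposited values are whole-number counts. The batch 2 table lists 11808 genes, so genes of low count are mostly missing from it.

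Groups, batches and replicate numbers came from the sample titles, and 0 columns of sample values were left unused. No 2 libraries of a group held the same counts: over 37 pairs, chi-square divided by its degrees of freedom was at least 5.89. Tests were edgeR 4.0.16 quasi-likelihood F tests in R 4.3.3 (two-sided, robust, TMM, filterByExpr), with all libraries of a table in 1 fit and Benjamini-Hochberg adjustment over all genes tested. Batches 4 and 5 were joined by gene ID for SST cKO, and the differences of responses were fitted over 2 tables. Intervals are normal 95% intervals from the SE, and floors cover counting error only. With so few libraries these intervals are narrower than the F test allows. Pthlh in PV CFC, for example, had an interval of -0.68 to -0.03 but an unadjusted edgeR p of 0.0526. Simulated counts were run through the fits of PV CFC, SST CFC, SST cKO and SST against PV saline libraries. The fits of the other comparisons were not run on simulated counts. Alternatives were DESeq2 1.42.0, limma 3.58.1 voom, DESeq2 size factors, no filter, fewer groups, a replicate block and each library left out. Exon lengths and gene positions are from GENCODE on GRCm38.

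The 10 genes and all gene lists were chosen with earlier results of these data known. Values or intervals are given for the 10 genes in the pairwise comparisons, and from each list up to 4 called genes or, with none called, the smallest p-values.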

Additional observations from a re-analysis of the deposited data

Results flagged for a closer look

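In 20 sets of 4 libraries (the 10 genes in PV PTZ and in SST saline libraries), 1 library lay far from the other 3. Vip was at 4.35 CPM in PV PTZ replicate 2, against 1.55, 1.82 and 1.57 CPM in the other PV PTZ libraries and 3.18, 2.09 and 0.852 CPM in PV saline libraries. Chance marks about 1 in 20 such sets.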

How the results depend on the processing

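Of 1208 values of single peptide genes under an alternative setting, 1174 kept their side of the threshold, 32 passed it only under the alternative and 2 lost it, and none of the called values changed sign. A further 63, counted among the 1174, had the other sign while neither value passed. The 2 losses are Penk in SST cKO libraries without cKO replicates 2 and 3. The number of the 10 genes called moved in these cases: without the filter on low counts, 4 in PV CFC, 3 in PV cKO and 6 in the difference of CFC responses; with DESeq2, 3, 1 and 3 in these and 6 in SST cKO. With 1 library left out in turn it ran from 0 to 3 in PV CFC, from 0 to 1 in PV cKO, from 2 to 4 in SST cKO and from 0 to 4 in the difference of CFC responses, and stayed at 0 in both PTZ comparisons, SST CFC and the difference of PTZ responses and at 8 in SST against PV saline libraries. A lone library left in a group is assumed to vary like the others.

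Counts over all genes moved more. With DESeq2 they were 215 in PV PTZ (main 4), 38 in SST PTZ (17), 617 in PV CFC (0), 650 in PV cKO (21), 101 in SST CFC (6), 2126 in SST cKO (1252), 1 in the difference of PTZ responses (0) and 220 in that of CFC responses (0). Without the filter they were 1032 in PV CFC, 1072 in PV cKO, 11 in SST CFC and 708 in the difference of CFC responses. With limma voom they were 27 in SST PTZ and 1 in PV CFC, and with the compared groups alone 38 in SST PTZ, 2 in PV CFC and 10 in PV cKO. With 1 library left out they ran from 0 to 14 in PV PTZ, 0 to 1481 in PV CFC, 7 to 1224 in PV cKO, 1 to 37 in SST CFC, 412 to 1292 in SST cKO, 0 to 1 in the difference of PTZ responses and 0 to 881 in that of CFC responses. The cause of these shifts was not tested.

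Replicate numbers were not shown to pair libraries: the correlation of same-numbered libraries ran from -0.499 in SST cKO to 0.507 in PV cKO, and no comparison had all pairs over 0.1 with 3 pairs. With the replicate block, genes called were 2 in PV PTZ, 8 in SST PTZ, 2 in PV CFC, 2 in SST CFC and 1 in the difference of PTZ responses, and the number of the 10 peptide genes called was 3 in SST cKO, 8 in SST against PV saline libraries and 0 elsewhere. Depth limits Vip, and Cort in batches 1 and 2, where libraries held as few as 0 to 60 reads.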
